A study of Mus musculus with 3 samples.

Results

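The axon guidance ligands and receptors of the mouse heart were described in 3 RNA sequencing libraries. They were chosen by name, as the rows of the deposited count table whose symbol starts with Sema, Plxn, Efna, Efnb or Unc5, or with Epha, Ephb, Slit, Robo or Ntn and a digit. This took 67 of 16587 genes. Of these, 65 belong to the semaphorins (20), plexins (9), ephrins (8), Eph receptors (13), Slits (3), Robos (4), netrins (4) and Unc5 receptors (4). The prefix also took Unc50, a gene of intracellular trafficking and not a netrin receptor, and Unc5cl, which resembles Unc5c but is not known as a guidance receptor. The poly(A) RNA came from heart, and every library is labelled as WT, male and 12 weeks old, so that all 3 form a single group and no conditions were compared. The strain and any pooling are not given in the sources used here, and nothing says that the libraries came from separate animals, so the spread between them may be technical.

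Guidance molecules were named for steering growing axons, and the same molecules act on vessels and on the developing heart. Semaphorins signal through plexins, often with a neuropilin as co-receptor. Ephrins sit in the membrane and bind Eph receptor tyrosine kinases on the neighbouring cell, with signals into both cells. Slits are large secreted proteins bound by Robo receptors, and netrins are secreted relatives of laminins bound by Unc5 receptors, neogenin and DCC. In vessels, Efnb2 and Ephb4 are known as marks of arteries and veins, and Plxnd1, Robo4 and Unc5b are known from endothelium.

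Library totals ran from 24914479 to 26398140 counts. All 8 cardiomyocyte markers were detected, at 80923 to 85795 CPM in sum, as were all 12 endothelial and all 10 fibroblast markers, while 0 of 9 lymphocyte markers in the table were. CPM is counts per 1000000 counts of the library, and detection here means that no library lies below 1 CPM. A gene at 0 counts could have had up to 3, which is 0.114 to 0.120 CPM, and such limits cover counting error only. Levels of different genes were compared as TPM, that is, counts divided by the length of the annotated exons and brought to a total of 1000000 in each library. Values are means ± SD (n = 3) unless given by library, in the order 1, 2 and 3.

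Of the 67 members 45 (67.2%) were detected, against 71.3% of all genes in the table. Without Unc50 and Unc5cl it was 44 of 65. A total of 20 members had counts but missed the limit, and 2, Robo3 and Epha10, had 0 counts in every library. The members together took 0.186 ± 0.0124% of the counts and 1030 ± 78.3 TPM. The median member stood at 3.35 TPM, against 7.31 TPM for all genes with a length. The 5 highest members held 42.9% of the members' TPM and the 10 highest held 65.7%. In order they were Sema7a (95.3 ± 7.35 TPM), Plxnd1 (94.9 ± 8.91 TPM), Ephb4 (87.8 ± 10.7 TPM), Efnb3 (87.6 ± 14.8 TPM) and Plxnb2 (76.1 ± 7.02 TPM). Apart from Plxnb2, these differed by little more than the spread between libraries, and Plxnd1 was above Sema7a in libraries 2 and 3. Plxnb2 was below Sema7a, Plxnd1 and Ephb4 in each library. With the longest transcript the mean of Plxnd1 was 74.1 TPM, that of Sema7a 70.4 TPM and that of Plxnb2 66.9 TPM. Ntn1, Efna1, Unc50, Sema3g and Robo4 completed the first 10. In whole tissue, few cells with much of an RNA and many cells with little of it cannot be told apart.

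**Figure D1:**
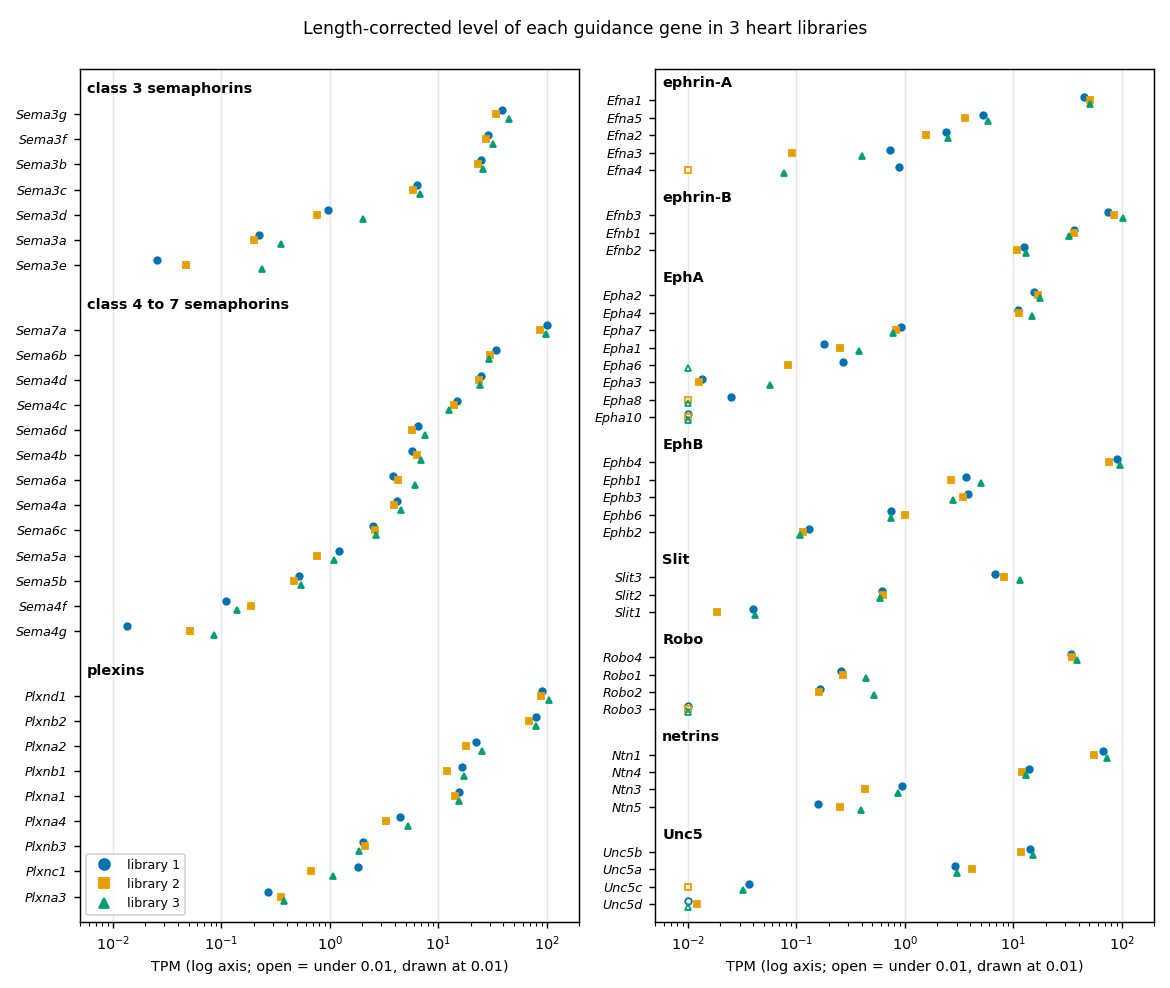
TPM of each of 65 guidance genes (log axis) by family, with 1 point per library. Sema7a, Plxnd1 and Ephb4 are the highest, and most families also hold members far below 1 TPM, such as Robo2 at 0.282 TPM beside Robo4 at 35.9 TPM.

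Class 3 semaphorins, which are secreted, were led by 3 genes. Sema3g, known from vascular endothelium, had 1496, 1396 and 1649 counts, which is 38.8, 34.1 and 44.9 TPM. Sema3f, which signals through Nrp2, stood at 29.0, 27.5 and 31.8 TPM, and its highest library lay below the lowest of Sema3g. Sema3b stood at 24.6, 23.2 and 26.0 TPM, below Sema3f in each library. The order of the first 2 depended on length. Sema3g exceeded Sema3f by a log2 ratio of 0.41 ± 0.10 per kilobase of all exons, but stood at -0.20 with the longest transcript.

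Sema3c, required in mice for septation of the cardiac outflow tract, was lower, at 6.32 ± 0.476 TPM. Sema3d, known from the patterning of pulmonary veins in mice, stood at 1.25 ± 0.674 TPM. Sema3a, the repellent that patterns sympathetic nerves of the mouse heart, had 26, 25 and 40 counts. It missed the detection limit in library 2 only, at 1.03, 0.947 and 1.61 CPM. Sema3c was 24.8-fold above Sema3a per kilobase (log2 ratio 4.63 ± 0.35) in the mean of 3 libraries. The log2 ratio was 3.78 with the longest transcript and 3.67 with no length correction. Sema3e, which binds Plxnd1 without a neuropilin, had 2, 4 and 18 counts, while its receptor Plxnd1 had 5644, 5824 and 6201. All 7 class 3 semaphorins were highest in library 3, as were 38.3% of all genes with a count. For Sema3b (997, 997 and 1004 counts) and Sema3c (387, 374 and 390 counts) the spread was close to counting error.

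Among the 13 membrane-bound semaphorins 11 were detected. Sema7a, which carries a lipid anchor and binds Plxnc1 and integrins, had 2809, 2581 and 2629 counts, or 100.3, 86.8 and 98.6 TPM. It held 49.9% of the TPM of these 13 genes. Its known plexin, Plxnc1, stood at only 1.19 ± 0.589 TPM. Sema6b followed Sema7a at 34.35, 30.03 and 29.62 TPM. Sema4d, the ligand of Plxnb1, stood at 24.96, 23.60 and 24.49 TPM, on 1627, 1633 and 1520 counts. The ranges of these 3 genes did not overlap, but the order of Sema6b and Sema4d rested on length. With the longest transcript Sema6b stood at 24.6 TPM and Sema4d at 30.8 TPM, and without length at 41.5 and 62.4 CPM. Sema4c, a ligand of Plxnb2, was lower than Sema4d, with a log2 ratio of -0.81 ± 0.12. Sema6d exceeded Sema6c by 1.34 ± 0.21 and Sema5a exceeded Sema5b by 0.97 ± 0.26 on the same scale. Sema4f (5, 9 and 6 counts) and Sema4g (1, 4 and 6 counts) were under the detection limit.

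Plexins were the receptors of highest sum, and 8 of 9 were detected. Plxnd1, the receptor of endothelium in developing vessels, had the most counts of all members and stood at 91.1, 88.5 and 105 TPM. Plxnb2 stood at 79.8, 68.0 and 80.5 TPM on 5232, 4733 and 5023 counts, below Plxnd1 in each library. Plxna2, a receptor of class 3 and class 6 semaphorins, was the next, at 22.43, 18.05 and 25.28 TPM. The gap between the first 2 and Plxna2 was several times the spread between libraries. Plxnb2 exceeded Plxnb1 by a log2 ratio of 2.32 ± 0.15, or 4.99-fold. Plxna2 exceeded Plxna4 by 2.35 ± 0.10, and Plxna1 exceeded Plxna3 by 5.49 ± 0.27. Plxna3, with 18, 25 and 24 counts, was the plexin under the limit.

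Ligands were also set beside a receptor. Sema4d exceeded Plxnb1 by a log2 ratio of 0.68 ± 0.25. Sema3c was below its co-receptor Nrp1 by -2.62 ± 0.06. In sum the semaphorins stood at 292 ± 19.3 TPM and the plexins at 231 ± 22.7 TPM. The ratio was 1.28, 1.30 and 1.22 in libraries 1, 2 and 3. It depended on length, since plexin transcripts are long, and was 0.696 ± 0.0273 in uncorrected counts.

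**Figure D2:**
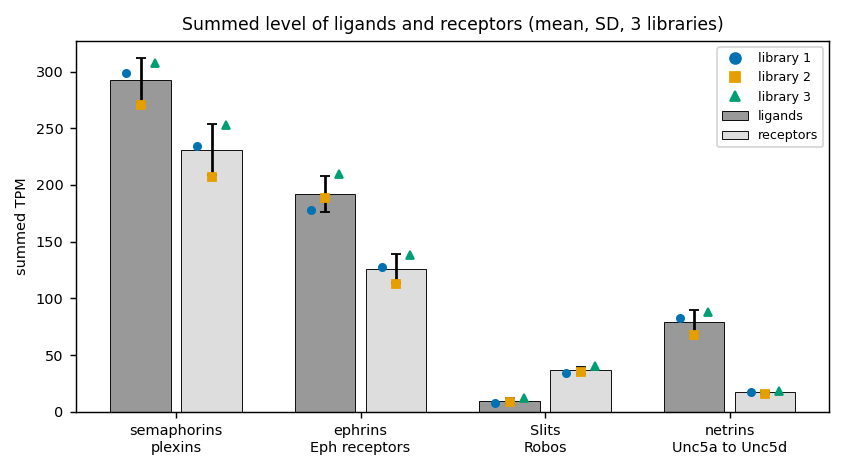
Summed TPM of the ligands (dark bars) and receptors (light bars) of 4 guidance systems, as mean with SD and 1 point per library. Slits are the ligands whose sum lies below the receptor sum drawn beside it in every library, with Robo4 holding 98.3% of the Robo sum. Slit3 (8.83 TPM) lies above Robo1 (0.320 TPM) and Robo2 (0.282 TPM). Netrins exceed the Unc5 receptors by 4.29 to 4.82 times, in a sum that leaves out the netrin receptor Neo1 (26.7 TPM).

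Ephrin-B genes, whose proteins cross the membrane, were all 3 detected, and their order was the same in every library. Efnb3, known from the midline of the nervous system, had 2008, 2436 and 2664 counts, or 74.3, 84.9 and 104 TPM. Efnb1 stood at 36.5, 36.7 and 32.8 TPM. Efnb2, the arterial ligand, stood at 12.6, 10.9 and 13.2 TPM. The ranges of the 3 genes did not overlap. Efnb1 was below Efnb3 by a log2 ratio of -1.30 ± 0.33 and Efnb2 was below Efnb1 by -1.53 ± 0.22. The second of these was -1.10 with the longest transcript and -0.54 with no length correction.

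Ephrin-A genes, whose proteins carry a lipid anchor, were led by Efna1, which held 86.3% of their TPM. Efna1 had 702, 842 and 753 counts, or 45.2, 51.1 and 50.9 TPM. Efna5 stood at 5.26, 3.58 and 5.86 TPM and Efna2 at 2.38, 1.56 and 2.50 TPM, both lowest in library 2. Efna1 exceeded Efna5 by 3.35 ± 0.42 on the log2 scale. Efna3 (15, 2 and 8 counts) and Efna4 (12, 0 and 1 counts) were under the limit. Efna1, Efna3 and Efna4 follow each other on chromosome 3 with no other protein-coding gene between them in RefSeq. Antisense genes overlap 14.1% of the annotated exons of Efna3 and 10.5% of those of Efna4, and strand was not given, so these low counts are uncertain. The same holds for Ntn5, with 23.4% of its exons overlapped by Sec1, and in part for Plxna1 (10.7%).

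EphB receptors were dominated by Ephb4, the venous receptor of Efnb2. It had 3598, 3170 and 3613 counts, or 91.4, 75.8 and 96.3 TPM, which is 91.6% of the TPM of the 5 EphB genes. Ephb1 stood at 3.63, 2.66 and 5.04 TPM and Ephb3 at 3.81, 3.43 and 2.78 TPM, and these ranges overlapped. Ephb4 exceeded Ephb1 by 4.58 ± 0.29 and Ephb2 by 9.48 ± 0.22 on the log2 scale. Ephb2 had 14, 13 and 11 counts. Ephb6, which lacks kinase activity, lay at the limit, at 0.948, 1.29 and 0.923 CPM. Efnb2 stood below Ephb4 by a log2 ratio of -2.84 ± 0.04, with values of -2.86, -2.79 and -2.86 in the 3 libraries.

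EphA receptors were lower, at 30.4 ± 2.92 TPM in sum over 8 genes, of which 3 were detected. Epha2, which binds Efna1, stood at 15.5, 17.0 and 17.5 TPM. Epha4, which binds ephrins of both classes, stood at 11.1, 11.3 and 14.9 TPM, below Epha2 in each library, although it had more counts. Epha7 was far below both, at 0.918, 0.831 and 0.776 TPM. Efna1 exceeded Epha2 by a log2 ratio of 1.55 ± 0.02, which was 0.20 with no length correction. The other 5 EphA genes had between 0 and 12 counts in any library. Epha10 had 0 in all 3, and Epha8 had 1, 0 and 0. The kinase-dead Epha10 therefore lay at least 1641-fold below Ephb4 per kilobase in the library with the smallest bound, taken against 3 counts in that library. Ephrins in sum stood at 192 ± 16.0 TPM and Eph receptors at 126 ± 13.1 TPM, a ratio of 1.53 ± 0.143. In uncorrected counts the ratio was 0.928 ± 0.0744.

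Slit genes were the lowest ligand family, at 9.48 ± 2.42 TPM in sum. Slit3 had 350, 447 and 565 counts, or 6.80, 8.18 and 11.5 TPM. Slit2 stood at 0.621, 0.628 and 0.593 TPM, and Slit1, known from the nervous system, had 2, 1 and 2 counts. Slit3 exceeded Slit2 by 3.81 ± 0.42 on the log2 scale. The annotated exons of Slit2 sum to 25433 bases, against 9960 in its longest transcript. With that length the log2 ratio was 2.67, and with none it was 1.74.

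Robo4, the endothelial member of its family, held 98.3% of the Robo TPM. It had 1532, 1653 and 1668 counts, or 34.0, 34.6 and 38.9 TPM. Robo1, the main Slit receptor of many tissues, had 36, 40 and 58 counts and 0.320 ± 0.0993 TPM. Robo2 had 24, 25 and 71 counts and 0.282 ± 0.203 TPM, and its order against Robo1 turned between libraries, with log2 ratios of 0.62, 0.71 and -0.25. Robo4 exceeded Robo1 by 6.83 ± 0.31 on the log2 scale, or 114-fold, and by 5.80 with the longest transcript. Robo3, known from commissural neurons, had 0 counts in all 3 libraries. Slit3 stood below Robo4 by -2.05 ± 0.28, and Slit2 above Robo1 by 0.97 ± 0.46. In sum Slits reached 0.258 ± 0.0445 of the Robo level. This rested on Robo4, since Slit3, at a mean of 8.83 TPM, stood far above Robo1 and Robo2. Whether Slits bind Robo4 was not tested.

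Robo4 and Robo3 lie side by side on chromosome 9 with no other protein-coding gene between them in RefSeq. Robo4 was at least 660-fold higher per kilobase in the library with the smallest bound, against 3 counts for Robo3. The start regions of this pair of neighbours, and of Efna1 and Efna4, are shown because each pair sets a member well above the detection limit beside one at or near 0 counts. Each is the RefSeq window of GRCm38.p6 from 250 bases before to 50 after an annotated start, 5′ to 3′ on the strand of the gene, with CG dinucleotides in capitals.
Robo4, chr9:37401722-37402021, plus strand: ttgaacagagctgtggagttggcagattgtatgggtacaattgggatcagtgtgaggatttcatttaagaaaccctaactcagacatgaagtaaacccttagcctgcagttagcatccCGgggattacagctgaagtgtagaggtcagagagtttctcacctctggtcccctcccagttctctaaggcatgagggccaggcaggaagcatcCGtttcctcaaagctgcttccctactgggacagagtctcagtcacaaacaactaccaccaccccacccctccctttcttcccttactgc
Robo3, chr9:37433126-37433425, minus strand: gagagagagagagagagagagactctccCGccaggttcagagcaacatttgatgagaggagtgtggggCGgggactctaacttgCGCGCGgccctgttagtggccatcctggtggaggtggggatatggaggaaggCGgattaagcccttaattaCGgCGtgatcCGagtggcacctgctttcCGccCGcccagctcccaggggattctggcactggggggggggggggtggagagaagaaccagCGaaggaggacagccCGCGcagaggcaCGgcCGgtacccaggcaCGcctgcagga
Efna1, chr3:89279596-89279895, minus strand: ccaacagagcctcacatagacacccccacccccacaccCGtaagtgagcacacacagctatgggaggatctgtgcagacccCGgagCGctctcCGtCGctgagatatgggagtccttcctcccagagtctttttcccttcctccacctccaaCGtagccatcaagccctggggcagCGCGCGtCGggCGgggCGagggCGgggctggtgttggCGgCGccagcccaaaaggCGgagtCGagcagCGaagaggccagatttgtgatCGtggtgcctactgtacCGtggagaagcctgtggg
Efna1, chr3:89280902-89281201, minus strand: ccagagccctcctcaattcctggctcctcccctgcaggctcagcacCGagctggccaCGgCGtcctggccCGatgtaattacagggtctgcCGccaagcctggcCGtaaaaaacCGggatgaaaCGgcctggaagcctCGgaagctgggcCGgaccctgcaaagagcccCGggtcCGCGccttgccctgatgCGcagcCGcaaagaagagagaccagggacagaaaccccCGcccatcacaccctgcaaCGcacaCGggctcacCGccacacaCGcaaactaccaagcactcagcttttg
Efna4, chr3:89337979-89338278, minus strand: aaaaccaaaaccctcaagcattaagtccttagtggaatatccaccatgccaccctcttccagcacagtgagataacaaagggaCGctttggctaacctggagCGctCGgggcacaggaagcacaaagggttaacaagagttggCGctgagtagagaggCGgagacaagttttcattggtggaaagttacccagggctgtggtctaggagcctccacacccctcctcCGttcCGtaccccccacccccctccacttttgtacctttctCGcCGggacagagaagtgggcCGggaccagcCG
The Robo4 window holds 2 CG dinucleotides and is 50.3% G and C, and that of Robo3, at 0 counts, holds 17 and is 63.3% G and C. Both Efna1 windows hold 20 and the Efna4 window 11. The windows of Efna3, which lies between them and was also under the detection limit, hold 34 and 22. RefSeq windows matched 58 of the 67 members, and 46 of these have a single window. Among the 46, the 28 detected members had a median of 24 CG dinucleotides (range 2 to 42) and the 18 others a median of 16.5 (range 2 to 56). Over the whole table, for genes with a single window, the medians were 21 for the 7475 detected and 8 for the 3018 others. The most CG-rich member window belonged to Epha8, which had 1 count in all. The letters TATAAA, on either strand, were found in 2 of 74 member windows (2.70%), those of Efnb2 and Slit2, against 13.6% of all 32851 windows. CCAAT, on either strand, was in 29.7% of member windows and 37.4% of all. The 32851 windows belong to 27025 genes, also ones outside the table, and had a median of 7 CG dinucleotides. Base composition thus differed between the sets and was not corrected for.

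Netrins were led by Ntn1, which had 3601, 3116 and 3730 counts, or 67.6, 55.1 and 73.5 TPM. Ntn4, a netrin of basement membranes, stood at 13.8, 12.2 and 13.0 TPM. Ntn3 followed at 0.945, 0.434 and 0.872 TPM, on 41, 20 and 36 counts, and Ntn5 had 3, 5 and 7 counts. Ntn1 exceeded Ntn4 by 2.32 ± 0.16 on the log2 scale, or 4.99-fold. Among netrin receptors, Unc5b, known from endothelium, stood at 14.2, 11.7 and 15.2 TPM on 755, 658 and 769 counts. Unc5a stood at 2.88, 4.15 and 3.03 TPM, and Unc5c had 6, 0 and 5 counts. Unc5d had 0, 1 and 0 counts. Ntn1 exceeded Unc5b by a log2 ratio of 2.25 ± 0.02, the smallest SD of the 35 pairs measured. In sum netrins stood at 79.4 ± 10.3 TPM and Unc5a to Unc5d at 17.1 ± 1.22 TPM, a ratio of 4.64 ± 0.301. That receptor sum leaves out the netrin receptor Neo1, which at 26.7 ± 2.53 TPM stood above it. Unc50 had 578, 679 and 574 counts and Unc5cl 6, 0 and 0.

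Of the 35 pairs 26 had the gene named first higher in every library and 7 had it lower in every library. The other 2 pairs, Robo1/Robo2 and Unc5c/Unc5d, did not keep 1 direction. No test was made, since 3 libraries allow no exact sign-flip p smaller than 0.25, and pairs with a gene near 0, such as Unc5b/Unc5c, give no reliable fold. Several sizes rested on gene length. With no length correction Sema4c/Sema4d stood at -1.55, Sema6d/Sema6c at 2.17, Sema5a/Sema5b at 2.37, Efna1/Efna5 at 2.21, Ephb4/Ephb2 at 8.04, Ephb4/Ephb1 at 3.98, Slit2/Robo1 at 1.59 and Ntn1/Ntn4 at 3.07. With the longest transcript Nrp1/Nrp2 stood at 1.69, Sema4d/Plxnb1 at 1.31 and Sema3c/Nrp1 at -3.66. None of these 11 changed direction.

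**Figure D3:**
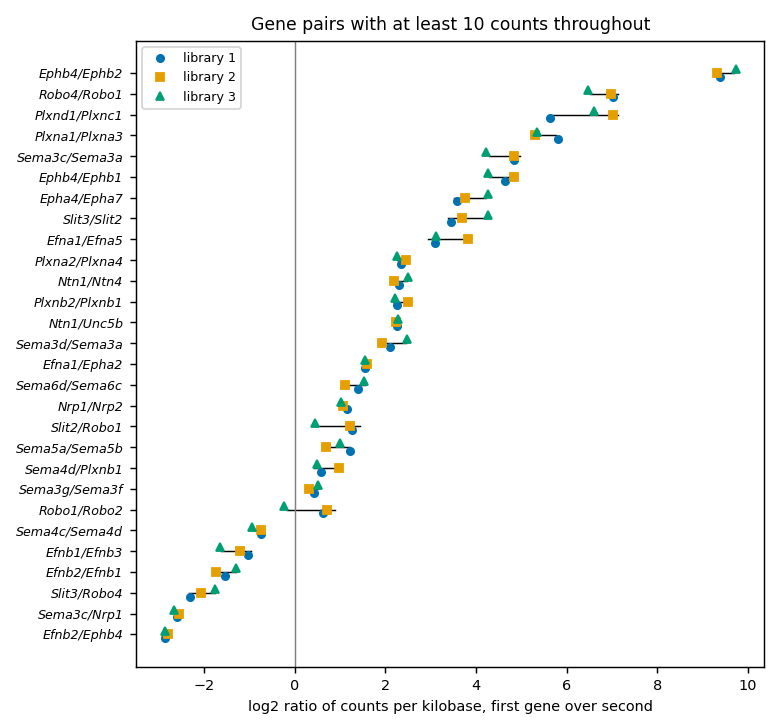
Log2 ratio of counts per kilobase, first gene over second, for the 28 pairs whose genes had at least 10 counts in every library; points are libraries and lines the mean ± SD. Robo1/Robo2 is the pair whose points lie on both sides of 0.

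The libraries differed little in most members. By edgeR, 0 of the 51 members past the filter of low counts differed between the libraries more than genes of their level, adjusted over all genes tested, against 0.591% of all genes (74 of 12521). DESeq2's trend also called 0. With 3 libraries these tests can miss moderate differences, so 0 calls do not show that the members were alike. At an unadjusted p under 0.05 edgeR gave 5 members (9.80%), against 5.39% of all genes tested, and DESeq2 gave 3. The median SD of log2 CPM was 0.16 for the members tested and 0.14 for all genes tested. The 16 members below the filter were not tested. Of the 45 detected members 23 had a coefficient of variation (SD over mean CPM) under 10% and 11 had one over 20%. How far this exceeded counting error differed between genes. Ephb4 varied by 10.1% where its counts alone give 1.70%, and Plxnd1 by 6.79% against 1.30%. For Sema4d (2.72% against 2.51%), Plxna1 (3.31% against 2.93%), Sema3b (3.27% against 3.16%) and Sema3c (5.15% against 5.11%) both values were close.

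**Figure D4:**
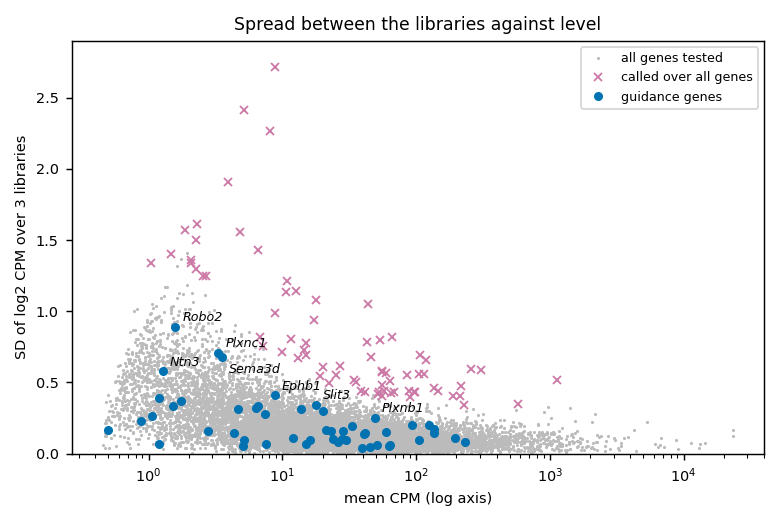
SD of log2 CPM over the 3 libraries against mean CPM (log axis) for 12521 genes (grey), those called over all genes (crosses) and the 51 guidance genes tested (blue). The guidance genes lie within the grey cloud, and Robo2, at 0.89, has the largest SD among those tested.

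Among the 51 members past the filter, the 5 with the largest SD were Robo2, Plxnc1, Sema3d, Ntn3 and Ephb1. With no filter, members of a few counts had larger SDs, such as Epha6 (2.38) and Efna4 (2.37). Robo2 stood at 0.948, 0.947 and 2.85 CPM, so that library 3 held 3.01 times the lowest level (edgeR adjusted p = 0.543). Sema3d stood at 2.77, 2.24 and 5.62 CPM and was also highest in library 3 (edgeR adjusted p = 0.692). Plxnc1, by contrast, was highest in library 1, at 5.14, 1.93 and 2.89 CPM (edgeR adjusted p = 0.691). Ephb1 stood at 8.53, 6.36 and 11.4 CPM. Ntn3 was lowest in library 2, at 1.62, 0.758 and 1.44 CPM. Slit3 (13.8, 16.9 and 22.7 CPM) and Plxnb1 (53.7, 39.6 and 54.2 CPM) were the other members at an unadjusted p under 0.05, besides Robo2, Sema3d and Plxnc1, and neither passed adjustment (edgeR adjusted p = 0.723 and 0.908).

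**Figure D5:**
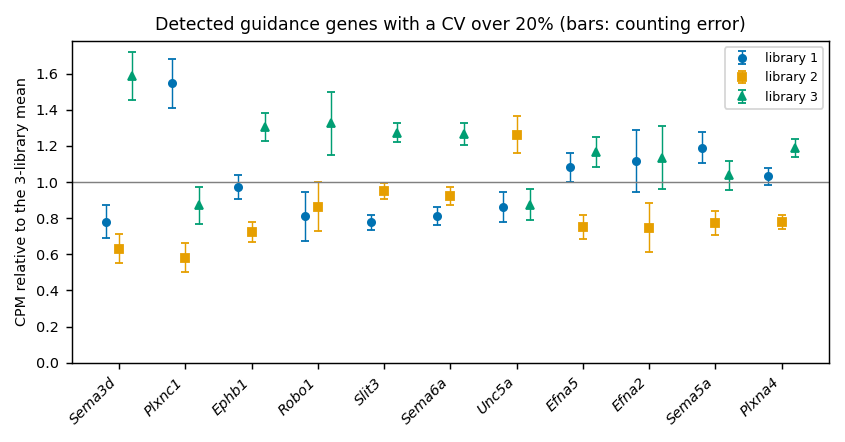
CPM relative to the mean of the 3 libraries for the 11 detected guidance genes with a coefficient of variation over 20%, with bars for counting error (the square root of the count). Library 3 is highest for 8 of them and library 2 is lowest for 7.

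Library 3 was the highest for 35 of the 65 members with a count (53.8%), against 38.3% of all genes with a count. With TMM scaling it was 31 of 65, against 34.2%. Markers of several cell types, though not of all, were also high in library 3, and their part in these values was not tested. Of 12 endothelial markers 8 were highest there, with sums of 2197, 2006 and 2488 CPM, and of 10 fibroblast markers 7, with sums of 1547, 1806 and 1904 CPM. Of 8 venous and lymphatic markers 7 were highest there, with sums of 346, 270 and 364 CPM, and of 10 pericyte and smooth muscle markers 8, with sums of 1501, 1608 and 1827 CPM. Of 12 mesothelial and epicardial markers 9 were highest there, with sums of 34.6, 25.6 and 43.7 CPM. The defining mesothelial genes Msln (0, 0 and 107 counts) and Lrrn4 (0, 0 and 42 counts) had counts in library 3 only. Other members of that list were not highest there: Wt1, the most abundant, had 506, 395 and 252 counts, Aldh1a2 had 278, 188 and 241, and Krt8 had 17, 2 and 8. Markers of Schwann cells and neurons summed to 58.9, 62.4 and 65.5 CPM. Cardiomyocyte markers were split, with 4 of 8 highest in library 3 and 4 in library 2, and sums of 85102, 80923 and 85795 CPM. Adipocyte markers were highest in library 3 for 6 of 8, but their sums of 1142, 1322 and 1203 CPM were highest in library 2. Of 8 arterial endothelial markers 5 were highest in library 3, but their sums were 204, 189 and 201 CPM. Of 10 macrophage markers 3 were highest in library 3 and 6 in library 1, with sums of 1108, 1042 and 1032 CPM. Library 1, where Plxnc1 was highest, was highest for 8 of 8 liver markers, with sums of 126, 3.83 and 7.43 CPM. It was also highest for 8 of 8 erythroid markers, with sums of 2238, 1054 and 1710 CPM, which were lowest in library 2, as Plxnc1 was. Of 12 immediate early genes 8 were highest in library 1, with sums of 570, 520 and 322 CPM. Of 5 atrial markers 3 were highest in library 1 and 2 in library 3, with sums of 470, 230 and 239 CPM. Nppa among them had 11640, 5952 and 5797 counts. The part of these markers in the values of Plxnc1 was not tested.

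Genes around these families were read against the 71.3% of all genes detected. Among co-receptors and further guidance receptors, 13 of 20 were detected, a share only a little below that of all genes. By edgeR 0 of 14 tested varied after adjustment over all genes. Kdr (59.9 ± 8.50 TPM), Nrp1 (38.9 ± 4.40 TPM), Ryk (33.7 ± 4.49 TPM) and the netrin receptor Neo1 (26.7 ± 2.53 TPM) were highest, and Dscam had 1, 0 and 0 counts. Nrp1 exceeded Nrp2 by a log2 ratio of 1.08 ± 0.07. The gene Dcc had no row in the count table, so neither it nor the planned pair Neo1/Dcc could be measured. Of 17 further ligands 11 were detected, also only a little below the share of all genes. Among those with a length Gpc1 (272 ± 28.7 TPM), Vegfa (126 ± 1.56 TPM) and Cxcl12 (101 ± 16.5 TPM) were highest. Hjv, which had no matched length and so no TPM, had 7026, 8324 and 7093 counts, and Gdf7 had 0 counts. Of 61 intracellular signalling genes 57 were detected, a share above that of all genes, with the cofilins Cfl1 (284 ± 10.2 TPM) and Cfl2 (283 ± 3.68 TPM), Cdc42 (225 ± 7.21 TPM) and Rac1 (197 ± 8.32 TPM) highest. Of 21 proteases and matrix partners 19 were detected, also above it, among them Col4a1 (208 ± 35.0 TPM), Lamc1 (87.9 ± 16.1 TPM) and Sdc3 (71.9 ± 10.4 TPM), while Rhbdl2 had 0 counts. In these last 3 lists 0 of 11, 0 of 59 and 0 of 20 tested genes varied by edgeR after adjustment. At an unadjusted p under 0.05 edgeR gave 0, 2, 5 and 1 genes in the 4 lists in this order, and DESeq2's trend gave 0, 2, 3 and 2, with 0, 0, 0 and 0 after adjustment.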

How the data were processed

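Poly(A) RNA from 3 mouse heart libraries was analysed, all in 1 group. For each gene symbol the authors deposited a whole-number count that was not normalized. HISAT2 2.0.4, Bowtie2 2.2.5, RSEM and the build GRCm39 are named in the submitters' processing notes, and their role and order, the strandedness and the read length are not given in the sources used here. Because RSEM makes estimates, the deposited counts may be rounded estimates that divide reads between similar sequences.

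Lengths were the union of annotated exons of GENCODE M21, matched by symbol for 16077 of 16587 genes (96.9%) and for all 67 members. Exon positions of the same annotation gave the overlaps between genes, and no printed coordinates were taken from it. Genes that differed between the libraries were sought with edgeR 4.0.16, by fitting 1 mean per gene in a negative binomial model, with TMM normalization and the trended dispersion, on the 12521 genes past edgeR's filter of low counts. A p came from each gene's deviance and the chi-square distribution, with Benjamini-Hochberg adjustment over all genes tested and a threshold of 0.05. The test was checked on simulated data, where it found most large changes placed in 1 library but missed most of the smaller ones. DESeq2 1.42.0 gave an alternative trend with a Pearson statistic. Gene pairs were compared as log2 ratios of counts per kilobase within each library, after 0.5 counts were added to each gene, with no test.

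Each family's 3 members of highest TPM are given by library, with members of the quoted pairs and the 5 of largest SD of log2 CPM. Other lists name up to 4 detected genes of highest TPM and up to 3 under the detection limit. The members, pairs and lists were chosen with earlier results of these data known. Sequences came from RefSeq tables of GRCm38.p6.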

Additional observations from a re-analysis of the deposited data

How the results depend on the processing

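The number of members detected was 45 and was 38 to 50 at 0.5 or 2 CPM, at a mean of 1 CPM, with TMM scaling, at 1 TPM, without Unc50 and Unc5cl (44, chosen after seeing the data) and without each library in turn. No member was called varying under any of the 6 alternatives. Over all genes the count of 74 became 126 with no filter and 17 to 51 when a library was left out (17 without library 1 and 39 without library 3). The members took 0.103% of TPM, and 0.227% of counts when the 20 most abundant genes were left out of the total. Length was the choice that moved the pairs most. Sema3g/Sema3f turned to -0.20 with the longest transcript, where Sema3f became the leader of its family, and 15 other pairs moved by more than 1 SD. With no length correction 22 pairs moved and Epha4 led the EphA genes. Leaving out 1 of 3 libraries cannot move their mean by 1 SD, so this measure could not show an effect of 1 library. The members highest in library 3, a count made after seeing the data, were 35, and 26 among the 45 detected. Depth limits the members near the detection limit, such as Sema3a. No paired analysis was possible because all libraries belong to 1 group.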

Other observations

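A pair of genes from the lists around the guidance families, named after their values were seen, were also highest in library 3. Gpc3, a membrane heparan sulfate proteoglycan, had 65, 73 and 200 counts (edgeR adjusted p = 0.0514). Cntn2, a neuronal adhesion protein, had 17, 5 and 65 counts and was below edgeR's filter of low counts.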
